A study of Mus musculus with 9 samples.

Results

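The genes of mouse chromosome 11, which carries Havcr2, the gene for TIM-3, were followed in NP53 cells and in a pair of TIM-3 knockout derivatives. A gene was included when the deposited tables placed it on chromosome 11 and its mean over the 9 libraries was at least 0.5 CPM, where CPM is the read count of a gene scaled to the total of its library. Of 2999 chromosome 11 genes, 1056 met this rule, among 13053 genes at that level on all chromosomes and 55401 genes in all. Each gene was assigned by its midpoint to 1 of 9 windows of 15 Mb, and the 10 genes with a midpoint at 45 to 48 Mb, around Havcr2, were read one by one. The chromosome and its windows were chosen because of their levels in the derivatives against the control, so the fall along the chromosome is a description and is not tested.

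NP53 is described as a mouse cell line of diffuse midline glioma, a childhood brainstem tumour also called DIPG, grown in DMEM with 10% fetal bovine serum. The control group, Gcontrol, is the NP53 line without a TIM-3 knockout, and G1C7 and G2C9 are derivatives labelled as carrying one. Each group had 3 libraries of poly(A) RNA, with 50110129 to 56035382 reads in genes per library. How the knockout was made, whether each derivative is a single clone and whether the 3 libraries of a group came from separate cultures were not given in the sources used here, and p-values here therefore cover no more than the spread among libraries as sequenced. Both comparisons with Gcontrol use the same 3 control libraries.

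TIM-3 is a membrane protein that dampens the responses of T cells and other immune cells that carry it. Its gene lies in a cluster with the other TIM genes, Timd2, Havcr1 and Timd4. Chromosome 11 is gene rich and also holds the IL-4, IL-5 and IL-13 locus, the CC chemokine and Schlafen clusters, the Hoxb cluster, the tumour suppressor Trp53, the imprinted gene Grb10 and several proteasome subunit genes. A gene's RNA level depends on its number of copies, its promoter and the turnover of its RNA, and RNA counts alone do not separate them.

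The promoters of 6 genes on which the account turns are shown first: Havcr2 as the targeted gene, Cyfip2 as its neighbour with the largest fall, and Grb10, Adamts2, Hs3st3a1 and Xaf1 as members that were at least 4-fold lower in both derivatives. Each line holds the 250 bases before the RefSeq start site, 5′ to 3′ on the gene's strand (RefSeq, GRCm38.p6), with every CG dinucleotide in capitals. The positions are chr11:46454681-46454930 for Havcr2 (plus strand), chr11:46312359-46312608 for Cyfip2 (minus), chr11:12037421-12037670 for Grb10 (minus), chr11:50601835-50602084 for Adamts2 (plus), chr11:64435082-64435331 for Hs3st3a1 (plus) and chr11:72301379-72301628 for Xaf1 (plus).
Havcr2: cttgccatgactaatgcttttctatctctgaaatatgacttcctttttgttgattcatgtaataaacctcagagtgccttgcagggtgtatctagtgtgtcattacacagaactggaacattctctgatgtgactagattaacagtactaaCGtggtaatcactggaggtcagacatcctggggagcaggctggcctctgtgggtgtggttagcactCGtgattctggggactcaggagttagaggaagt
Cyfip2: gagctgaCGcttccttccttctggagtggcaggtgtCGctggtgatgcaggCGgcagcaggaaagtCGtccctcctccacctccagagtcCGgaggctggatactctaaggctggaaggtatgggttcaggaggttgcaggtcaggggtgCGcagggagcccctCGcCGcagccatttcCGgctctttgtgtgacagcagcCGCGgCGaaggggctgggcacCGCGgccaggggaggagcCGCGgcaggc
Grb10: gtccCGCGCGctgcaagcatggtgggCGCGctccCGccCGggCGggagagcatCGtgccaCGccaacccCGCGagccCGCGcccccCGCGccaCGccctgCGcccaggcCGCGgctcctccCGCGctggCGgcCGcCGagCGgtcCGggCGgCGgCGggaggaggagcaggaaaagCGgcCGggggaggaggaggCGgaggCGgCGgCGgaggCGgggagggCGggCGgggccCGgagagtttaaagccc
Adamts2: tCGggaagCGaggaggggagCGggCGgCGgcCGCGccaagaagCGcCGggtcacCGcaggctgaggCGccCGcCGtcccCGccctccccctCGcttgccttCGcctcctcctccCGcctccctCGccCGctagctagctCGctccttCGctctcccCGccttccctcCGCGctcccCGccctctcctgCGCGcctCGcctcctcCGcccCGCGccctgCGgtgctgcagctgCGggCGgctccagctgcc
Hs3st3a1: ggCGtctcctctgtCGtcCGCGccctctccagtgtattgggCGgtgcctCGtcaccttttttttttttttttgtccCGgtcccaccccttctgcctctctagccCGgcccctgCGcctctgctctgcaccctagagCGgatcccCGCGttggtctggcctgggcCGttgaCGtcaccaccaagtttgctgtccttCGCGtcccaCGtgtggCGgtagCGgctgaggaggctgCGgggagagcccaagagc
Xaf1: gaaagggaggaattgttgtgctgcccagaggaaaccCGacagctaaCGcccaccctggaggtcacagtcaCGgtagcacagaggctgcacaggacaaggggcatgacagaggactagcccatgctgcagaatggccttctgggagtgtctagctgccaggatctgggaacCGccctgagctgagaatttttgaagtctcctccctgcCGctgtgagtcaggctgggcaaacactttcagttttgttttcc
CG, which reads the same on both strands, occurred 2 times in the Havcr2 promoter, 5 times in that of Xaf1, 16 times for Cyfip2, 20 times for Hs3st3a1, 34 times for Adamts2 and 40 times for Grb10. At least 1 CG was present in 99.2% of the 9674 promoters of genes at 0.5 CPM or more that had an entry. The median promoter of those genes held 16, and that of the 823 members with an entry held 17. The 6 promoters thus span both ends of the range: 97.5% of the promoters held fewer CG than that of Grb10, and 2.57% held fewer than that of Havcr2. The 82 members with an entry that were called lower in both derivatives had a median of 17, and the 6 with an entry that were at least 4-fold lower in both had a median of 24.5, ranging from 5 to 40. The Grb10 and Cyfip2 start sites lie 1263 and 501 bases inside the extent that the deposited tables give for these genes.

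Some features of the whole series bear on every value below. In each derivative 1 library differed from its partners: replicate 2 of G1C7 and replicate 3 of G2C9. Of 8 glial precursor and glioma markers, Olig1 and Olig2 had no reads in any library and 2 more were under 0.5 CPM, while the list summed to between 455 and 498 CPM in Gcontrol, 536 and 663 in G1C7 and 531 and 660 in G2C9. Pdgfra averaged 248, 385 and 448 CPM in the 3 groups, Nes 117, 152 and 96.1, Sox2 69.5, 44.6 and 34.7, and Cspg4 43.6, 1.30 and 4.27. The 4 fibroblast and mesenchymal markers (Col1a1, a member here, Col1a2, Dcn and Pdgfrb) summed to between 5218 and 5490 CPM in the control, 2864 and 7317 in G1C7 and 3425 and 7544 in G2C9; the part of such differences in the results was not tested. T and NK cell markers were at or near 0. In bulk RNA, fewer cells that express a gene and less RNA per cell cannot be told apart.

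Chromosome 11 genes held 10.2% of all reads in genes in the Gcontrol libraries (range 10.1% to 10.2%), 8.59% ± 0.346 (SD, n = 3) in G1C7 and 8.17% ± 0.128 (SD, n = 3) in G2C9. All 6 derivative libraries, at 8.02% to 8.80%, lay below all 3 control libraries. The 10 genes with the largest share in each derivative, among them Col1a1, a fibrillar collagen chain, the nucleolar chaperone gene Npm1, the translation factor genes Eif5a and Eif4a1, the matrix gene Sparc and the cytoplasmic actin gene Actg1, made up 27.7% of the net difference in G1C7 and 26.5% in G2C9.

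To compare genes of all levels, for each library the level of a gene was expressed as log2(CPM + 0.5) minus its mean in Gcontrol, and centred on the median of all 13053 genes. On this scale the median chromosome 11 gene stood at -0.18, -0.26 and -0.18 in the 3 G1C7 libraries and at -0.29, -0.27 and -0.29 in the 3 G2C9 libraries, while the control libraries lay between -0.00 and 0.01. The group means were -0.21 in G1C7 and -0.28 in G2C9. Chromosome 11 was the lowest of 20 chromosomes in G2C9 by the group mean. In G1C7 chromosome 3 was lower, at -0.37 (it stood at -0.09 in G2C9), and chromosome 12, at -0.19 on average, was below chromosome 11 in replicates 1 and 3 (-0.21 and -0.20) and above it in replicate 2 (-0.15). Chromosome 10 was an example of the opposite sign, at 0.26 in both derivatives. The fall was spread over most genes: 74.3% of the members were below 0 in G1C7 and 82.4% in G2C9, against 48.6% and 47.0% of the 11997 genes of the other chromosomes. The middle 50% of members ran from -0.42 to 0.01 in G1C7 and from -0.45 to -0.08 in G2C9.

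**Figure D1:**
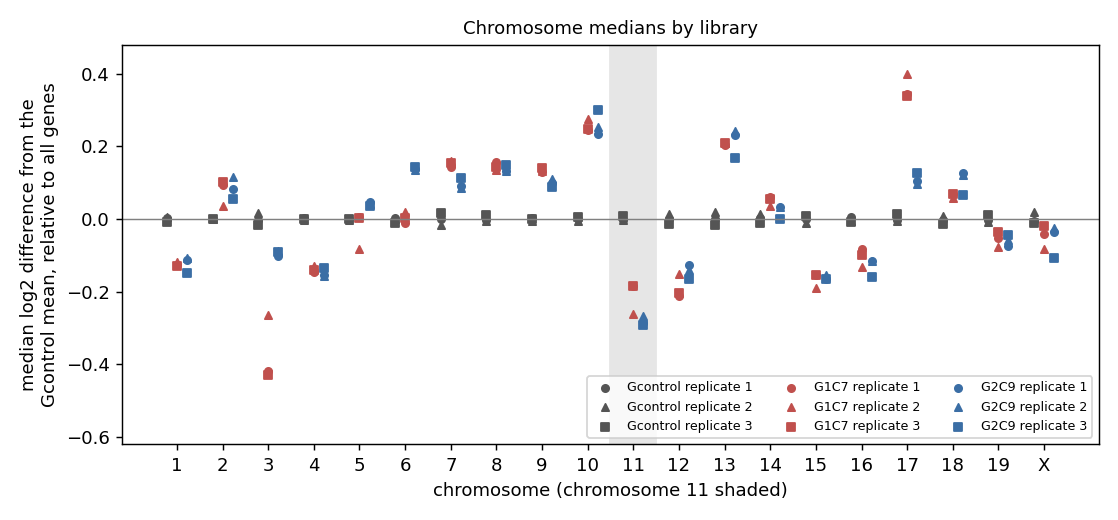
Median log2 difference from the Gcontrol mean, relative to all genes, of the genes of each chromosome (horizontal axis) in each of the 9 libraries; grey, red and blue points are Gcontrol, G1C7 and G2C9, and symbols give the replicate. On chromosome 11 (shaded) all 6 derivative libraries lie between -0.18 and -0.29, with the control libraries near 0.

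The difference from other chromosomes was present among weakly and strongly expressed genes and larger among the latter, mostly because the other genes differed by level. Members at 0.5 to 5 CPM were 0.15 below genes of the other chromosomes at that level in G1C7 and 0.21 below in G2C9, and members at 50 CPM or more were 0.25 and 0.34 below. The members' own medians were -0.21 and -0.26 in the weak class and -0.23 and -0.29 in the strong class. Those of the other genes were -0.06 and -0.05, then 0.03 and 0.05. Chromosome 11 transcripts were somewhat richer in G and C, with a median of 52.4% against 49.6% elsewhere. Within 4 classes of transcript GC content, the members were 0.19 to 0.24 lower than other genes in G1C7 and 0.27 to 0.32 lower in G2C9.

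Along the chromosome the fall was present in nearly every window but not equal in all. The window of Havcr2 itself (45 to 60 Mb, 131 members) stood at -0.18, -0.19 and -0.17 in the G1C7 libraries and at -0.33, -0.31 and -0.38 in the G2C9 libraries, with the control libraries no more than 0.01 from 0. From the start of the chromosome, the 9 window means were -0.20, -0.00, -0.10, -0.18, -0.15, -0.24, -0.26, -0.28 and -0.27 in G1C7, and -0.17, -0.18, -0.19, -0.34, -0.27, -0.31, -0.29, -0.30 and -0.34 in G2C9. All 3 libraries were below 0 in 8 of 9 windows in G1C7 and in 9 of 9 in G2C9. The exception was the window from 15 to 30 Mb, with 54 members, where the G1C7 libraries stood at 0.01, -0.02 and -0.00. In the first window G1C7 replicate 2 stood at -0.33 while the other 2 G1C7 libraries stood at -0.13, so the mean of -0.20 leans on that library.

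**Figure D2:**
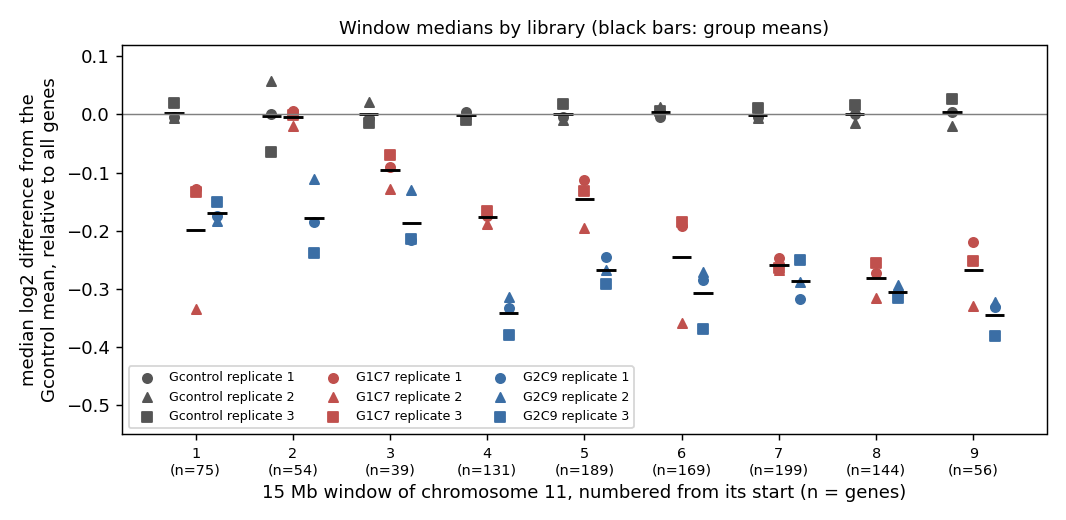
Median log2 difference from the Gcontrol mean, relative to all genes, in each of the 9 windows of 15 Mb (horizontal axis, with the number of genes) for every library; black bars are group means. In the window holding Havcr2 (window 4) the G1C7 libraries lie between -0.17 and -0.19 and the G2C9 libraries between -0.31 and -0.38.

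Havcr2's window was not the lowest of the chromosome in G1C7, where windows 1 and 6 to 9 were lower. In G2C9 it shared the lowest place with window 9 at the far end (both -0.34). Cut into 3 Mb windows, the mean was below 0 in 36 of 38 windows in each derivative. The 3 Mb around Havcr2, with 10 members, stood at -0.27 in G1C7 and at -0.49 in G2C9. Its G2C9 libraries stood at -0.40, -0.38 and -0.68, the last being the library that differed from its partners, and without it the next window, from 42 to 45 Mb, at -0.46 and -0.36 in the libraries left, was lower in 1 of them. The lowest of the 38 in G1C7 was at -0.38. Over the whole genome, 174 windows of 15 Mb held at least 20 genes, and the lowest 17 of them included 4 chromosome 11 windows in G1C7 and 6 in G2C9.

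**Figure D3:**
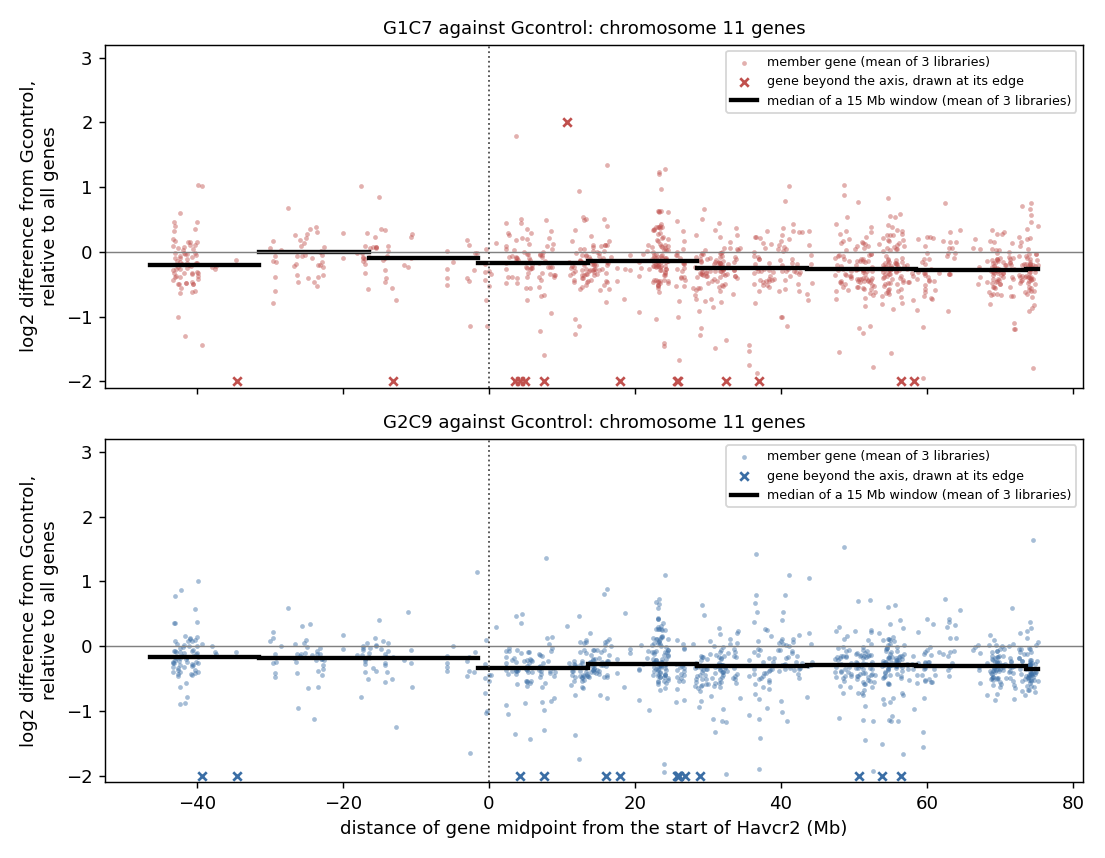
Log2 difference from Gcontrol, relative to all genes, of each member (points, mean of 3 libraries) against the distance of its midpoint from the start of Havcr2 in Mb (dotted line at 0), with 15 Mb window medians as black bars. Genes beyond 2 on either side are crosses at the level of 2 (13 lower and 1 higher in G1C7, 15 lower and 0 higher in G2C9), and both clouds of points lie mostly below 0 on both sides of Havcr2.

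Gene by gene, in the edgeR quasi-likelihood fit over all genes, 178 members were called in G1C7 against Gcontrol at a Benjamini-Hochberg adjusted p under 0.05, of which 148 were lower and 30 higher (lower: 14.0% of members, with 8.73% of all genes tested). In G2C9, 212 were called, 196 lower and 16 higher (lower: 18.6% of members, with 7.22% of all genes tested). The higher calls made up 2.84% and 1.52% of members, with 8.77% and 6.25% of all genes. Most of the lower calls were small, since 114 of the 148 and 155 of the 196 were less than 2-fold. In all, 103 members were called lower in both derivatives (4.59% of all genes tested were) and 10 higher in both (4.56% of all genes). Because the chromosome was chosen on these same contrasts, nothing is read from the shares. The libraries of 442 members (41.9%) in G1C7 and of 573 (54.3%) in G2C9 lay entirely below those of Gcontrol, where 22.1% and 22.9% of all genes tested did so. The median fitted log2 fold change of the members was -0.20 in G1C7 and -0.28 in G2C9, with 0.02 and 0.01 over all genes tested.

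With G1C7 replicate 2 and G2C9 replicate 3 both left out, the chromosome median was -0.18 in G1C7 and -0.28 in G2C9. The same fit then called 646 members in G1C7, 521 of them lower, and 753 in G2C9, 669 of them lower, including all 178 and 212 named above; the share of all genes called rose to 54.3% and 53.0%. With G1C7 replicate 2 alone left out, 282 and 428 members were called (25.8% and 25.6% of all genes tested). Among the fits without 1 library, the lowest counts, 63 and 77 (7.32% and 5.44% of all genes tested), came without Gcontrol replicate 1.

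Havcr2 (gene ENSMUSG00000020399.14 of the plus strand, from 46454935 to 46481255 on chromosome 11 of GRCm38) was weakly expressed in every group and was not called in either derivative. Its levels were 1.37, 1.07 and 1.06 CPM in the control, 1.03, 0.109 and 1.21 CPM in G1C7 and 0.772, 0.612 and 0.547 CPM in G2C9. Apart from replicate 2, the G1C7 libraries overlapped those of Gcontrol, whereas the 3 G2C9 libraries lay below them. The log2 fold change was -0.58 ± 0.64 (SE) in G1C7 and -0.85 ± 0.64 in G2C9 (edgeR adjusted p = 0.586 and 0.448). With both differing libraries left out, these values were -0.06 (0.868) and -0.75 (0.0293), so the G2C9 call depended on which libraries were used. A whole-gene read count shows neither a small edit in an exon nor the protein, so it does not check the knockout label.

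The other TIM genes lay below the threshold. Timd2 had 14, 18 and 25 reads in Gcontrol, 8, 5 and 1 in G1C7 and 8, 2 and 4 in G2C9, and was not called (edgeR adjusted p = 0.0730 and 0.0995). Havcr1 had at most 14 reads and Timd4 at most 6 in any library. Of the 48 genes of the files at 45 to 48 Mb, 20 had no read in any library. Others, such as Timd2, had reads but fell below the level threshold, so the 10 members are only the part of this interval that met the rule.

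Of those 10, 3 were called lower in G1C7 and 4 in G2C9, none higher, and 8 had a fitted fold change below 0 in each derivative. Over all members, 14.0% and 18.6% were called lower, with 8.73% and 7.22% of all genes tested. A fold change below 0 was found in 71.1% and 80.5% of members. The median of the 10 was -0.32 in G1C7 and -0.46 in G2C9. Cyfip2, which encodes a subunit of the WAVE complex that drives actin branching, had the largest fall. It stood at 1.52, 1.40 and 1.55 CPM in the control, 0.318, 0.437 and 0.475 in G1C7 and 0.634, 0.327 and 0.547 in G2C9. No derivative library reached the lowest control library. The log2 fold change was -1.86 ± 0.31 (SE) in G1C7 and -1.56 ± 0.30 in G2C9 (edgeR adjusted p = 0.00467 and 0.0111). The G2C9 call held in 7 of the 9 fits without 1 library (highest adjusted p 0.0511, without Gcontrol replicate 3).

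Adam19, the gene of a membrane metalloprotease that sheds growth factors such as neuregulin, was abundant and fell in both derivatives. Its levels were 132, 121 and 140 CPM in the control, 76.8, 87.9 and 71.8 in G1C7 and 63.3, 57.8 and 70.7 in G2C9. The groups did not overlap, and the fold changes of -0.73 ± 0.11 and -1.03 ± 0.11 (edgeR adjusted p = 0.00333 and 8.77e-04) were kept without each library in turn. Adam19 shares 10.1% of its exon length with other genes, and reads there were not counted; for Irf1, Cnp, Rpl19 and Slc13a5, described below, the share was 20.0%, 12.7%, 11.4% and 9.57%.

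Lsm11, a component of the U7 particle that processes histone mRNA, fell in G2C9 and differed between the derivatives. It stood at 18.0, 18.4 and 18.5 CPM in the control, 14.6, 17.8 and 16.1 in G1C7 and 10.5, 11.6 and 10.5 in G2C9. The change in G2C9 was -0.75 ± 0.11 (edgeR adjusted p = 0.00288), with -0.18 ± 0.11 in G1C7 (0.283), and G1C7 was higher than G2C9 by 0.57 ± 0.11 (0.0240). That difference was called in 3 of the 9 fits without 1 library (highest adjusted p 0.103, without G2C9 replicate 1). Med7, a Mediator subunit and the expressed gene nearest to Havcr2 on its upstream side, was at 36.8, 37.5 and 31.5 CPM in the control, 26.2, 31.0 and 29.3 in G1C7 and 25.5, 26.7 and 25.1 in G2C9. The fall passed the test in G2C9 (-0.45 ± 0.10, edgeR adjusted p = 0.0208; called in 5 of 9 fits without 1 library, up to 0.1005 without Gcontrol replicate 1) and not in G1C7 (-0.29 ± 0.10, 0.0875).

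Clint1, which encodes an epsin-like adaptor of clathrin coats, was at 182 ± 3.90 CPM (SD, n = 3) in Gcontrol, 148 ± 14.2 in G1C7 and 151 ± 3.14 in G2C9. Its fold changes were nearly equal, -0.29 ± 0.09 and -0.27 ± 0.09, and only the first passed (edgeR adjusted p = 0.0485 and 0.0759). The G1C7 call was kept in 2 of 9 fits without 1 library (up to 0.163, without Gcontrol replicate 2). Sgcd, which encodes delta-sarcoglycan of the dystrophin complex and spans the most DNA of these genes, stood at 9.51 ± 0.709, 10.7 ± 1.31 and 11.8 ± 0.681 CPM and was not called (0.17 ± 0.13 and 0.31 ± 0.13; edgeR adjusted p = 0.431 and 0.171). Thg1l, a tRNA-His guanylyltransferase gene, and the pseudogene Gm12174 had fold changes between -0.39 and -0.56 that did not pass, and Gm12166 had 0.10 and 0.15. Havcr2 thus lay among genes of which some were lower and its large neighbour Sgcd was not. With both differing libraries left out, 6 and 7 of the 10 were called lower, and 7 of the 10 in G2C9 without G1C7 replicate 2 alone against 2 without Gcontrol replicate 1. Lower calls over all 1056 members moved in the same fits. They numbered 521 and 669 with both left out, and in G2C9 393 and 72 in the other fits. Of all genes tested, 54.3% and 53.0%, then 25.6% and 5.44%, were called.

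**Figure D4:**
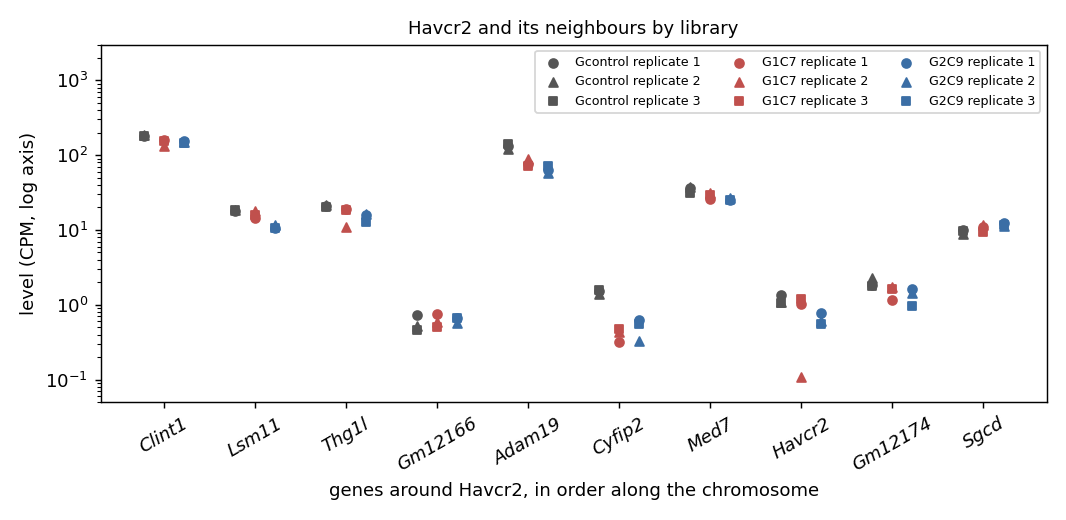
Level of each of the 10 members around Havcr2 in CPM (log axis), in chromosome order, for every library; grey, red and blue points are Gcontrol, G1C7 and G2C9. Cyfip2 and Adam19 show all derivative libraries below all control libraries, and Havcr2 shows G1C7 replicate 2 at 0.109 CPM apart from the rest.

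Beyond this interval, single genes fell far more than the chromosome median. There were 8 members called lower by at least 4-fold in both derivatives: Grb10, Adamts2, Pdlim4, Hs3st3a1, Xaf1, Coro6, Tns4 and C1ql1. These 8 lie in windows 1, 4, 5, 6 and 7, and the flanking members described below did not move alike. The matching count over all genes is not given here. Called lower by at least 2-fold were 34 of the 1056 members in G1C7 and 41 in G2C9. Of all 13053 genes at 0.5 CPM or more, 443 and 425 were, so large falls are not read as particular to the chromosome. Grb10 (ENSMUSG00000020176.17, 11930508 to 12038683, minus strand) encodes an adaptor that restrains insulin and IGF receptor signalling and is imprinted. It stood at 94.6, 97.4 and 99.0 CPM in the control, 0.150, 0.182 and 0.183 in G1C7 and 0.753, 0.490 and 1.56 in G2C9. The log2 fold change was -9.12 ± 0.43 in G1C7 and -6.69 ± 0.36 in G2C9 (edgeR adjusted p = 2.90e-05 and 4.26e-05), from 16000 reads to 28 and 142 reads over the 3 libraries of a group. Its flanking members were near their control levels. Fignl1, a DNA repair ATPase gene on one side, had -0.11 ± 0.11 and -0.08 ± 0.11, and Sec61g, a translocon subunit gene on the other, had 0.09 ± 0.17 and 0.10 ± 0.17, none of them called (edgeR adjusted p from 0.568 to 0.777). Fignl1 ends at 11808962, close to Grb10. Sec61g starts only at 16500530, in the next 15 Mb window, so no member close to Grb10 was read on that side.

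Adamts2, the procollagen N-proteinase, stood at 11.9, 11.1 and 12.4 CPM in Gcontrol and had 8 reads over the 3 libraries of each derivative, 2 libraries of G1C7 and 1 of G2C9 being at 0. The fold changes were -7.84 ± 0.91 and -7.74 ± 0.91 (edgeR adjusted p = 0.00105 and 0.00121). Hs3st3a1, a heparan sulfate sulfotransferase gene, had 355 reads in Gcontrol (2.07, 2.25 and 2.13 CPM), none in G1C7 and 6 in G2C9. Counting 6 reads, or 3 read pairs, as the floor of a group, it was at least 58.5-fold lower in G1C7. In G2C9 the ratio of Gcontrol to the derivative was 54.1 (95% counting interval 18.2 to 265, which like the floor covers counting error only).

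C1ql1, which encodes a secreted C1q-like protein that organises synapses, had 7.82, 7.69 and 7.62 CPM in Gcontrol. It fell to 4 reads in G1C7, a ratio of Gcontrol to G1C7 of 314 (interval 86.6 to 2601), and to 1.43, 1.02 and 0.918 CPM in G2C9 (-2.78 ± 0.47, edgeR adjusted p = 0.00646). Xaf1, an interferon-inducible gene that promotes apoptosis, stood at 49.7, 51.4 and 51.5 CPM in the control, 5.84, 14.4 and 5.99 in G1C7 and 3.64, 3.14 and 8.59 in G2C9. The highest value of each derivative came from the library that differed from its partners, and all 6 lay far below the control. Its fold changes were -2.54 ± 0.46 and -3.31 ± 0.48 (edgeR adjusted p = 0.00701 and 0.00311).

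Next to Xaf1, the citrate transporter gene Slc13a5 stood at 16.8, 17.6 and 18.3 CPM in the control, 0.206, 5.88 and 0.219 in G1C7 and 0.535, 0.837 and 1.99 in G2C9. Every derivative library was below the control, and neither comparison passed (-3.06 ± 1.13 and -3.97 ± 1.19, edgeR adjusted p = 0.101 and 0.0604). It passed in both when the 2 differing libraries were left out, at -6.35 and -4.68. The next member, Smtnl2, a smoothelin-like gene, had 3.51 ± 0.274 CPM in the control, 0.935, 5.35 and 0.475 in G1C7 and 0.158, 0.612 and 0.781 in G2C9, and was not called. Lower neighbours were also seen beside Pdlim4, where Slc22a21 was called lower in G2C9 and Slc22a4 in G1C7, and beside C1ql1, where Dcakd was called lower in both. Next to Hs3st3a1, Cox10, Elac2 and the other flanking members were not called. All derivative libraries of Elac2 (-0.61 in both) and of Cox10 (-0.38 and -0.39) nevertheless lay below all control libraries. Those of the other flanking members overlapped the control.

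The other 3 genes of the group averaged at most 5.16 CPM in the control. Pdlim4, a PDZ and LIM protein gene in the IL-4, IL-5 and IL-13 region, went from 2.68, 2.61 and 2.13 CPM to 0.0748, 0.473 and 0.0731 in G1C7 and 0, 0.0408 and 0.156 in G2C9. The call in G1C7 was kept in 4 of 9 fits without 1 library (adjusted p up to 0.0725, without Gcontrol replicate 1). Coro6, a coronin gene, went from 1.27 CPM to 0.123 and 0.205, and its G2C9 call was kept in 6 of 9 such fits (up to 0.0721, without Gcontrol replicate 1). Tns4, which encodes a tensin at focal adhesions, went from 5.16 ± 0.774 CPM (SD, n = 3) to 1.17 ± 0.242 and 0.992 ± 0.209 (-2.14 ± 0.25 and -2.38 ± 0.26, edgeR adjusted p = 0.00109 and 8.40e-04).

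Just inside the level threshold lay Gm11772 and Snord42b, with means of 0.501 CPM, and just outside lay Zfp286 and Aipl1. Zfp286, a zinc finger gene with a mean of 0.499 CPM, went from 1.45 CPM in Gcontrol to 0 in G1C7 and 0.0334 in G2C9, so a gene that fell as far as those above was left out by the rule.

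Genes that rose in both derivatives were few. Ordered by the smaller of their changes, the first 6 were Dlx4, Eno3, Ramp3, Axin2, Gdpd1 and Chrnb1. Eno3, the muscle form of the glycolytic enzyme enolase, went from 54.8, 55.4 and 54.1 CPM to 127, 152 and 127 in G1C7 and 121 ± 39.0 (SD, n = 3) in G2C9. No derivative library overlapped the control (1.30 ± 0.20 and 1.15 ± 0.20, edgeR adjusted p = 0.00333 and 0.00689). Ramp3, which encodes a partner of the calcitonin receptor-like receptor, went from 67.0 ± 1.83 CPM (SD, n = 3) to 140 ± 11.2 and 138 ± 37.9 (1.06 ± 0.17 and 1.04 ± 0.17, edgeR adjusted p = 0.00445 and 0.00560).

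Gdpd1, a glycerophosphodiesterase gene, went from 21.3 ± 2.12 CPM (SD, n = 3) to 37.1 ± 1.80 and 37.6 ± 6.38 (0.80 ± 0.13 and 0.82 ± 0.13, edgeR adjusted p = 0.00481 and 0.00507), kept without each library in turn. The homeobox gene Dlx4 went from 1.80 CPM to 4.42 and 6.34, and its G1C7 call was kept in 6 of 9 fits without 1 library (up to 0.0752, without Gcontrol replicate 2). Chrnb1, a muscle acetylcholine receptor subunit gene, went from 6.94 CPM to 17.0 and 11.9, and its G2C9 call was kept in 5 of 9 (up to 0.0915, without Gcontrol replicate 1). Axin2, a feedback inhibitor and common readout of WNT signalling, went from 0.857 CPM to 1.79 and 1.75 (edgeR adjusted p = 0.0339 and 0.0454), and was called in 3 and 1 of the 9 fits without 1 library (up to 0.122 and 0.158, both without Gcontrol replicate 1).

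By role, the proteasome list had the highest share of called members among the lists made for the chromosome. Beside the list counts below stand the shares called lower in G1C7 and G2C9. These were 14.0% and 18.6% of all members, and 8.73% and 7.22% of all genes tested. No list was tested against these shares, and several of the counts lie near them. The proteasome is the protease that degrades ubiquitin-tagged proteins; its barrel of Psma and Psmb subunits is capped by a regulatory particle of Psmc and Psmd subunits. Of 7 proteasome genes on the chromosome, all of them members, 6 were called lower in each derivative and none higher. Psmd3 was at 393, 381 and 399 CPM in the control, 257, 241 and 262 in G1C7 and 267, 264 and 279 in G2C9, and Psmb3 was at 223, 236 and 219, then 148, 154 and 164, then 142, 158 and 164. In both genes the derivative libraries lay close together and entirely below the control. Psmd3 fell by 0.63 ± 0.07 on the log2 scale in G1C7 and by 0.54 ± 0.07 in G2C9 (edgeR adjusted p = 0.00113 and 0.00266), and Psmb3 fell by 0.54 ± 0.09 and 0.55 ± 0.09 (0.00404 and 0.00445). The calls on these 2 genes were kept without each library in turn.

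Psmc5, Psmd11, Psmd12 and Psmb6 changed by -0.29 to -0.59, with edgeR adjusted p from 0.00457 to 0.0463. The least stable of their calls was Psmd12 in G2C9, kept in 1 of 9 fits without 1 library (up to 0.183, without Gcontrol replicate 1). Its G1C7 call was kept in 6 (up to 0.0909, without the same library). Psmb6 in G1C7 was kept in 4 (up to 0.0999, without Gcontrol replicate 2), Psmc5 in 6 and 3 (up to 0.0623 without Gcontrol replicate 1 and 0.0961 without replicate 2), and Psmd11 in 6 and 7 (up to 0.0684 and 0.0637, without Gcontrol replicate 2). Psme3, which encodes the nuclear activator PA28-gamma, was not called (-0.57 ± 0.25 and -0.56 ± 0.25, edgeR adjusted p = 0.161 and 0.191); G1C7 replicate 2 and G2C9 replicate 3 had its lowest levels, 116 and 142 CPM, with 210 to 225 in the other derivative libraries and 276 to 283 in Gcontrol.

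Subunits of the same complex made elsewhere offer a comparison within the particle, chosen after the values were seen. The 6 genes of the 26S particle on chromosome 11 had medians of -0.49 in both derivatives, whereas the 25 on other chromosomes had -0.11 in both. Of those 25, 8 were called lower in G1C7 and 5 in G2C9, and none higher. The 5 lowest of them in each derivative lay on chromosomes 3, 12 and 13. The medians of these chromosomes did not share a direction. In G1C7 and G2C9, chromosome 3 stood at -0.37 and -0.09, chromosome 12 at -0.19 and -0.14, and chromosome 13 at 0.21 in both. Psma2, on chromosome 13, had fold changes of -0.68 and -0.56.

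**Figure D5:**
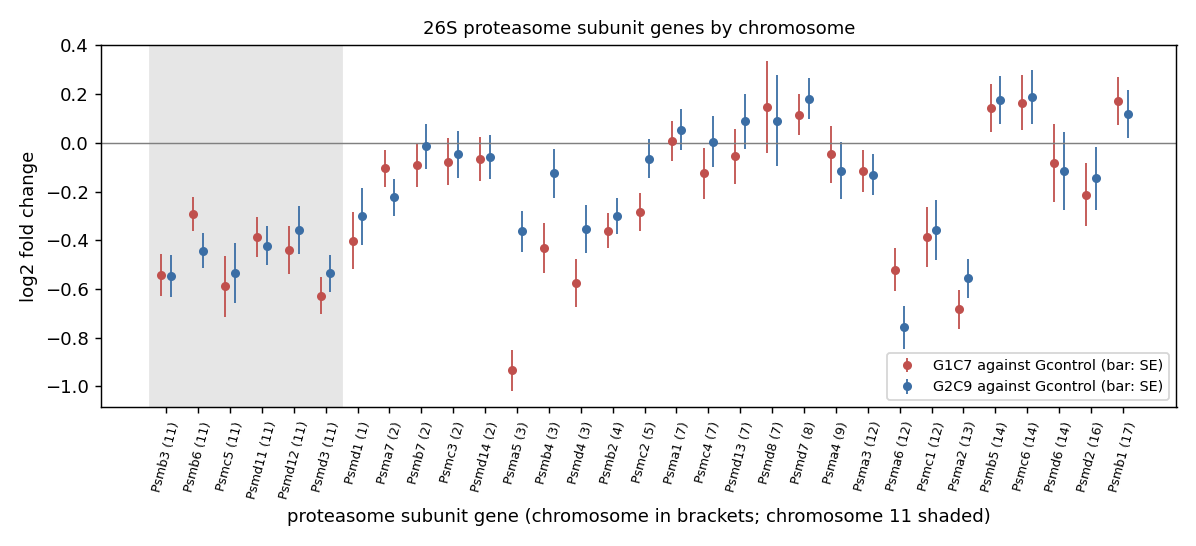
Log2 fold change of each 26S proteasome subunit gene (points, bars are SE) in G1C7 (red) and G2C9 (blue) against Gcontrol, ordered by chromosome, with the chromosome in brackets. All 6 chromosome 11 genes (shaded) lie between -0.29 and -0.63, and genes elsewhere run from -0.93 to 0.19.

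Of 8 ribosomal protein genes on the chromosome, counting the ribosome-bound scaffold gene Rack1, 1 was called lower in G1C7 and 4 in G2C9, with medians of -0.18 and -0.32, and all 8 were below 0 in both. Rpl19 was at 725, 751 and 725 CPM in the control, 573, 574 and 612 in G1C7 and 555, 556 and 540 in G2C9. It fell by 0.32 ± 0.08 and 0.41 ± 0.08 on the log2 scale (edgeR adjusted p = 0.0198 and 0.00847), calls that were kept in 5 and 7 of 9 fits without 1 library (up to 0.0904 and 0.0519, without Gcontrol replicate 2). Rpl26 fell in G2C9 by 0.45 ± 0.08 (0.00853; kept in 8 of 9, 0.0513 without Gcontrol replicate 2).

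Among genes of the cell cycle and DNA repair, 23 members were present. In G1C7, 2 were called lower and in G2C9 3, with medians of -0.28 and -0.26, and 21 and 23 of the 23 were below 0. Spag5, which encodes the spindle protein astrin, was called lower in both (-0.29 ± 0.08 and -0.28 ± 0.08, edgeR adjusted p = 0.0337 and 0.0426; kept in 2 and 1 of 9 fits without 1 library, up to 0.157 and 0.192 without Gcontrol replicate 1). Top2a, the DNA topoisomerase of dividing cells, stood at 868 CPM in the control, 720 in G1C7 and 738 in G2C9 and was not called. Trp53, the p53 gene, stood at 11.8, 13.2 and 11.6 CPM in the control, 10.4, 5.46 and 10.7 in G1C7 and 8.18, 7.90 and 8.34 in G2C9. All derivative libraries were below the control, and neither comparison passed (-0.46 ± 0.23 and -0.58 ± 0.23, edgeR adjusted p = 0.213 and 0.143).

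Among signalling genes, Rps6kb1, which encodes the S6 kinase downstream of mTOR, was at 108, 112 and 107 CPM in the control, 60.4, 47.1 and 56.8 in G1C7 and 63.7, 63.0 and 55.7 in G2C9. It fell by 0.99 ± 0.11 and 0.84 ± 0.11 on the log2 scale (edgeR adjusted p = 7.48e-04 and 0.00168), without any overlap and without loss of the call in fits lacking 1 library. Of 19 members of the growth factor, RAS, JAK and STAT list, 3 were called lower in G1C7 and 4 in G2C9, and none higher. Of 25 chromatin and transcription genes, 5 were called lower and 1 higher in G1C7, and 7 lower and 1 higher in G2C9. Supt6, a histone chaperone of transcribing polymerase, fell from 240 ± 14.9 CPM (SD, n = 3) to 142 ± 18.7 and 163 ± 8.85 (-0.76 ± 0.11 and -0.55 ± 0.11, edgeR adjusted p = 0.00276 and 0.0129). Its G2C9 call was kept in 6 of 9 fits without 1 library (up to 0.0706, without Gcontrol replicate 3).

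Smarce1, a BAF remodelling subunit gene, was called lower in both (-0.50 ± 0.12 and -0.55 ± 0.12, edgeR adjusted p = 0.0197 and 0.0157; kept in 6 and 4 of 9, up to 0.0877 and 0.0785 without Gcontrol replicate 1). Ebf1, a transcription factor best known from B cells and mesenchymal cells, went against the chromosome in 1 derivative. It stood at 9.72, 9.61 and 9.44 CPM in Gcontrol and 10.1, 9.83 and 8.90 in G1C7, and rose to 20.2, 21.6 and 23.6 in G2C9 (1.18 ± 0.11, edgeR adjusted p = 4.12e-04). Ebf1 lies within 3 Mb of Havcr2, on the side of lower coordinates.

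Of the 5 CC chemokine genes that were members, 2, Ccl2 and Ccl7, differed between the derivatives. Ccl2 and Ccl7 encode ligands that attract monocytes through CCR2. Ccl2 was at 424, 455 and 418 CPM in the control, 162, 148 and 171 in G1C7 and 312, 317 and 527 in G2C9. The G1C7 libraries were all below the control, and the G2C9 libraries lay on both sides of it. The change was -1.43 ± 0.20 in G1C7 and -0.17 ± 0.19 in G2C9 (edgeR adjusted p = 0.00203 and 0.637), and the difference between the derivatives was called (-1.26 ± 0.20, 0.0112). Ccl7 was at 200, 214 and 177 CPM, then 65.9, 46.6 and 65.4, then 126, 140 and 165. It fell in G1C7 by 1.73 ± 0.16 on the log2 scale (edgeR adjusted p = 4.06e-04) and was below the control libraries in G2C9 without passing (-0.46 ± 0.16, 0.0937).

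The chromosome list held 11 CC chemokine genes in all. In G1C7, 3 were called lower, the other being Ccl8 at a mean of 0.122 CPM against 1.27 (edgeR adjusted p = 0.0219; kept in 5 of 9 fits without 1 library, up to 0.0758 without Gcontrol replicate 2). In G2C9, 1 was called lower, Ccl9 (-1.56 ± 0.42, edgeR adjusted p = 0.0428; kept in 3 of 9, up to 0.142 without Gcontrol replicate 2). The cytokine genes Csf3 (G-CSF) and Lif were not called against Gcontrol and were lower in G1C7 than in G2C9, with G2C9 replicate 3 the highest library of both, at 86.8 and 594 CPM; these calls were kept in 4 and 3 of 9 fits without 1 library (up to 0.107 without G1C7 replicate 1 and 0.129 without G1C7 replicate 3). Other clusters were expressed in part: no gene of the Hoxb cluster, 3 of 8 Schlafen genes and 4 of 6 immunity-related GTPase genes reached the threshold.

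Slfn3, of the Schlafen family of growth and RNA regulators, was at 1.28, 1.44 and 1.52 CPM in Gcontrol and 2.71, 2.61 and 1.62 in G2C9, and had 4 reads in G1C7, a ratio of Gcontrol to G1C7 of 57.6 (95% counting interval 15.6 to 481). Reads that match several Schlafen copies were not counted, so the split between them is uncertain. Irgm1, an interferon-induced GTPase of autophagy, was called lower in G2C9 (-0.90 ± 0.20, edgeR adjusted p = 0.0178; kept in 4 of 9 fits without 1 library, up to 0.0734 without Gcontrol replicate 2).

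In the region of the IL-4, IL-5 and IL-13 genes, 19 of 23 listed genes were members, with 3 called lower in G1C7, and 4 lower and 1 higher in G2C9. Irf1, the interferon regulatory factor, was at 65.3, 64.9 and 64.6 CPM in the control, 43.7, 70.4 and 46.1 in G1C7 and 31.7, 35.6 and 39.6 in G2C9. It was called lower in G2C9 (-0.86 ± 0.18, edgeR adjusted p = 0.0142; kept in 4 of 9, up to 0.0569 without G2C9 replicate 1). G1C7 replicate 2 stood above the control, and the other G1C7 libraries below it. Slc22a4, an ergothioneine transporter gene beside Pdlim4, fell in G1C7 (-2.02 ± 0.40, 0.0103). Acsl6, a long-chain fatty acid ligase gene in the same region, rose in G2C9 (1.67 ± 0.37, 0.0205; kept in 6 of 9, up to 0.0871 without Gcontrol replicate 2).

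Of 19 members on the matrix, adhesion and protease list, 4 were called lower in G1C7 and 3 in G2C9. Timp2, a metalloprotease inhibitor, went from 1171 CPM in Gcontrol to 887 and 878 (-0.40 ± 0.08 and -0.42 ± 0.08, both with edgeR adjusted p = 0.0128; kept in 6 and 4 of 9 fits without 1 library, up to 0.0653 and 0.0690 without Gcontrol replicate 1). Col23a1, a transmembrane collagen, fell in G1C7 from 9.45 to 1.63 CPM (-2.53 ± 0.43, 0.00546). Col1a1 was at 2698, 2582 and 2857 CPM in the control, 1424, 3522 and 1329 in G1C7 and 1345, 1282 and 2560 in G2C9. In each derivative 1 library, replicate 2 of G1C7 and replicate 3 of G2C9, was near or above the control level and the other 2 were far below it, and neither comparison passed (edgeR adjusted p = 0.570 and 0.341). With those libraries left out, both did (-0.98 and -1.04).

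Of 10 members on the neural and glial list, 1 was called higher in G1C7 and 2 were called lower in G2C9. Gria1, an AMPA receptor subunit gene, went from 1.04, 0.979 and 1.34 CPM in Gcontrol to 19.5, 6.32 and 17.7 in G1C7 and stood at 2.06, 1.57 and 1.02 in G2C9. It rose in G1C7 (3.70 ± 0.46, edgeR adjusted p = 0.00141). Aspa, the oligodendrocyte enzyme that splits N-acetylaspartate, went from 20.0 ± 1.33 CPM (SD, n = 3) to 4.65, 5.45 and 2.50 in G2C9 (-2.25 ± 0.29, 0.00172) and was at 17.2, 11.2 and 16.4 in G1C7. Cnp, a myelin phosphodiesterase gene, fell in G2C9 (-0.91 ± 0.17, 0.00950).

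The contrast of G1C7 with G2C9 was not used to choose the chromosome. Of the members, 39 were called (3.36% of all genes tested were). In G1C7, 24 of them were higher, 2.27% of members with 1.71% of all genes tested, and 15 lower, 1.42% with 1.65%, shares near those of all genes in this fit. With both differing libraries left out, 386 members were called, 79 of them lower in G1C7 and the rest higher, while 27.3% of all genes tested were called. The median difference was 0.08, with 0.01 over all genes tested. In 4 of 9 windows, the 4 from 15 to 75 Mb, every G1C7 library stood above every G2C9 library, in window 3 by less than 0.01 and by the widest margin in the window of Havcr2, where the fitted median difference was 0.16. From 75 Mb on the library medians of both derivatives overlapped in each window. Those overlaps, like that of the first window, came from G1C7 replicate 2 or G2C9 replicate 3. Among the remaining libraries, every G1C7 library stood above every G2C9 library in each of these windows.

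Some members separated the derivatives completely. Rnf227 and Slc16a3 were the 2 members called in opposite directions against Gcontrol. Rnf227, a RING finger gene, was at 8.61, 8.61 and 7.59 CPM in the control, 4.12, 3.10 and 4.31 in G1C7 and 14.2, 13.4 and 12.9 in G2C9, with no overlap between any of the groups (-1.11 ± 0.16 and 0.71 ± 0.15, edgeR adjusted p = 0.00224 and 0.0171; the rise was kept in 4 of 9 fits without 1 library, up to 0.0886 without Gcontrol replicate 3). Slc16a3, the lactate exporter MCT4, was at 3.99, 3.51 and 4.02 CPM in the control, 0.917, 0.401 and 1.10 in G1C7 and 8.02, 7.80 and 34.6 in G2C9. Both of its changes (-2.25 ± 0.63 and 2.13 ± 0.60, edgeR adjusted p = 0.0408 and 0.0494) were each kept in 3 of 9 such fits, the second at up to 0.163 without Gcontrol replicate 2.

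Ranbp17, an importin-like nuclear transport gene, had 2.37, 1.74 and 1.01 CPM in Gcontrol and 1.41 ± 0.190 (SD, n = 3) in G2C9, but 2 reads in G1C7, a ratio of Gcontrol to G1C7 of 138 (95% counting interval 24.4 to 5489). Efemp1, a gene of the fibulin family of matrix proteins, had 60 reads in Gcontrol and none in G2C9, at least 9.14-fold lower, and stood at 0.823, 2.55 and 0.840 CPM in G1C7. Rnf130, a RING finger ligase gene, was at 28.4, 29.5 and 27.7 CPM in the control, 2.23 ± 0.517 (SD, n = 3) in G1C7 and 10.3, 10.9 and 11.3 in G2C9, lower in both and lowest in G1C7 (-3.68 ± 0.18 and -1.40 ± 0.16, edgeR adjusted p = 2.90e-05 and 0.00113). Igfbp3, an IGF-binding protein gene, was at 34.6, 3.93 and 31.9 CPM in G1C7, with 4.67, 3.76 and 2.34 in G2C9 and 45.7 ± 1.37 (SD, n = 3) in Gcontrol. G1C7 replicate 2 had the G2C9 level of this gene, and the call was made in G2C9 alone (-3.67 ± 0.69, 0.0102), the difference between the derivatives not passing (0.0720).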

How the data were processed

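RNA was measured in 3 libraries each of Gcontrol, G1C7 and G2C9, grouped by sample name. Per the submitters' processing notes, reads were checked with FastQC 0.11.8, aligned with STAR 2.6.1c to GRCm38 and counted with featureCounts 1.6.0; edgeR and limma are also named. The deposited values are raw read counts per gene, made by the authors, per the file headers, without options for read pairs, strand, multiple matches or overlapping genes. Each mate was therefore counted on its own, reads in overlapping genes or with several matches were dropped, and antisense partners cannot be told apart. Fits treat these counts as reads, so 3 read pairs, the limit that a count of 0 allows, correspond to 6 reads, or 0.107 to 0.120 CPM in a library.

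All 15659 genes that passed filterByExpr were fitted in edgeR 4.0.16 (R 4.3.3), with TMM factors, 1 model over 9 libraries (6 residual degrees of freedom), robust quasi-likelihood tests and Benjamini-Hochberg adjustment over all genes tested; all 1056 members were tested. Genes were called at an adjusted p under 0.05, and ± after a fold change is its SE. The fit was first run on simulated counts with known changes. These were drawn without libraries that differ from their partners, so that run does not show how such libraries move the calls. Relative levels use log2(CPM + 0.5), which understates the change of weakly expressed genes. Counting intervals are 95% and exact, and cover counting error only. Alternatives were DESeq2 1.42.0, limma 3.58.1 (voom), relative log expression factors, no filter, other level thresholds and windows, a replicate block and leaving out libraries. Same-numbered libraries were not paired. Of 9 correlations of their deviations across genes, 1 exceeded 0.1, at 0.62 for replicates 1 of G1C7 and G2C9. Between the same derivatives it was -0.68 for replicates 2 and -0.72 for replicates 3. The libraries that differed from their partners, G1C7 replicate 2 and G2C9 replicate 3, deviated alike, with a correlation of 0.77.

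The members, lists and windows were chosen with earlier results of these data known. Named genes followed a rule: the 10 members around Havcr2 and the TIM genes; for each window and derivative, the most changed called gene each way; the 6 most changed each way in both derivatives; the 4 most changed each way between derivatives; up to 2 each way per list; the genes at the level threshold; and members without reads in a derivative. Not every gene it names is described. Of 80 genes followed through the alternatives, 29 fell outside this rule and were chosen after their values were seen. Promoters came from RefSeq (GRCm38.p6). Some results are not reported here.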

Additional observations from a re-analysis of the deposited data

Results flagged for a closer look

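The derivatives differed from each other in 20 of the 80 genes followed here, by the edgeR test of G1C7 against G2C9. Many of the 80 were chosen for their changes, some after their values were seen, so these calls give no rate of difference. Over all 1056 members 39 were called, and 3.36% of all genes tested were. All values are log2 fold changes of G1C7 over G2C9 in the fit over all genes, with the adjusted p in brackets. Lower in G1C7 were Ranbp17 at -6.59 (0.00244), Slfn3 at -6.43 (6.05e-04), C1ql1 at -5.39 (0.00468), Slc16a3 at -4.38 (0.0112), Grb10 at -2.43 (0.0193) and Rnf130 at -2.28 (3.21e-04). The secreted factors Csf3 at -2.09 (0.0278), Lif at -1.56 (0.0417), Ccl7 at -1.28 (0.00449) and Ccl2 at -1.26 (0.0112) were also lower, as were Rnf227 at -1.82 (6.49e-04) and the transcription factor gene Ebf1 at -1.18 (8.26e-04).

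Higher in G1C7 were Lsm11 at 0.57 (0.0240), Fmnl1, a formin gene, at 1.27 (0.00826), Jup, which encodes plakoglobin, at 1.595 (0.0268), Cenpv at 1.71 (0.0200), the leukotriene synthase gene Ltc4s at 1.83 (0.0246), Aspa at 1.83 (0.0112), Gria1 at 3.23 (0.00727) and Efemp1 at 9.23 (0.00826). Efemp1 had no reads in G2C9, and Ranbp17, Slfn3 and C1ql1 had 2 to 4 reads in G1C7, so their fitted values depend on the prior count. Of the 20 calls, 12 were kept without each library in turn. The others were kept in 8 (Slc16a3), 7 (Grb10), 4 (Csf3, Cenpv and Ltc4s), 3 (Lif and Lsm11) or 2 (Jup) of the 9 fits without 1 library. Ltc4s shares 26.4% of its exon length with other genes.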

How the results depend on the processing

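The median of the chromosome kept its sign and size under every alternative computed for it, from -0.18 to -0.22 in G1C7 and from -0.27 to -0.29 in G2C9. The number of called members moved, and the cause was not tested. In G1C7, G2C9 and between the derivatives, 178, 212 and 39 members became 288, 325 and 97 with DESeq2 (24.7%, 20.4% and 8.09% of all genes tested were called), 646, 753 and 386 with both differing libraries left out (54.3%, 53.0% and 27.3%), and 90, 110 and 13 with a replicate block (9.78%, 7.11% and 1.05%). Leaving out 1 library gave 63 to 282, 77 to 428 and 15 to 103. Over those fits the share of all genes tested that was called ran from 7.32% to 25.8%, from 5.44% to 25.6% and from 1.14% to 8.01%. The share of lower calls stayed between 79.6% and 86.5% in G1C7 and between 88.8% and 95.5% in G2C9, but between the derivatives it ran from 20.5% to 73.3%. Around Havcr2, genes called lower numbered 2 to 4 in G1C7 and 2 to 7 in G2C9 without 1 library, and 6 and 7 with both differing libraries left out. The shares of all genes called in these fits, given above, moved as well. Slc13a5 reversed between the derivatives, from 0.91 to -1.67 with both left out and -2.38 without G1C7 replicate 2; without 1 library it ran up to 1.602. Of 43, 50 and 20 followed genes called, 27, 26 and 11 kept the call under all 14 alternative fits. With 3 libraries in a group, genes near the depth floor give no firm fold change.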
